A study of Mus musculus with 2 samples.

Results

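The genes followed are 4 hypoxia-responsive ones, the glycolytic enzyme genes Aldoa, Tpi1 and Ldha and the growth factor gene Vegfa, out of 8139 gene symbols in the deposited expression table. They were chosen by symbol, and because their RPKM values in these same libraries were known when they were proposed, those values are a description with no test. RPKM is the number of reads per kilobase of gene model, scaled to the mapped reads of the library. The libraries came from C57BL/6 mast cells grown out of femoral bone marrow, 1 from wild type (WT) cells and 1 from cells lacking Tet2 (Tet2-/-), an enzyme gene whose product oxidises 5-methylcytosine in DNA. Both cultures were kept for 4 to 6 weeks in interleukin-3 at 10 ng/ml and stem cell factor at 5 ng/ml, and cells with a purity above 97.5% for the IgE receptor FcεRI and c-Kit were used. The labels do not give how many mice supplied each culture or how the Tet2 allele was made, and since each genotype has a single library, no value has a replicate to check it.

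Glycolysis splits glucose to pyruvate in the cytosol and yields ATP without oxygen, and cells that reduce the pyruvate to lactate can keep the pathway running when respiration is limited. When oxygen is low, the hypoxia-inducible factors (HIF) escape degradation, bind a short core motif in DNA and raise transcription of many glycolytic enzyme genes and of Vegfa, whose secreted product stimulates endothelial cells and vessel permeability. Mast cells, myeloid cells that live in tissues, store granules, respond to IgE and are a known source of VEGF.

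Some facts of the libraries bear on every value below. From the spacing of low values, the depth was put at 31400000 fragments in WT and 31800000 in Tet2-/-, and the median difference over the 2107 models averaging at least 1 RPKM was a log2 fold of 0.01. Tet2 was not analysed here, which leaves the genotype unchecked by expression. Of 13 mast cell markers 4 were listed, and their summed level was 2968 RPKM in WT against 2954 in Tet2-/-. Most of that sum was Gzmb, at 1770 against 1994 RPKM, while Fcer1g had a ratio of 0.736 (0.714 to 0.760), Slc18a2 of 0.859 (0.849 to 0.869) and Mitf of 0.987 (0.898 to 1.09). Of 11 macrophage and monocyte markers 6 were listed, all 6 higher in Tet2-/-, with a summed level of 1.06 RPKM in WT against 23.8 in Tet2-/-, of which Ly6c2 made up 18.8 RPKM. Of 8 neutrophil markers 3 were listed, with a summed level of 1.12 against 10.1 RPKM, and Csf3r was at 0.01, the value that stands in for no reads, in both libraries. The part of such cells in the values of the 4 genes was not tested. A bulk library cannot tell fewer cells of a type from less RNA per cell.

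All 4 genes had lower RPKM values in Tet2-/- than in WT, by unequal amounts. The direction of Ldha turned when values were taken relative to Tbp, but not to the other listed reference genes. Aldoa stood at 62.7% of its WT level, Vegfa at 64.6%, Tpi1 at 73.2% and Ldha at 94.6%. None of the 4 reached a 2-fold difference on the log2(RPKM + 1) scale, a size that 1.61% of the 2107 models reached in the lower direction and 2.9% in the higher. At 1.5-fold on the same scale 2 of the 4, Aldoa and Vegfa, were lower, against a background of 3.61% of models lower and 5.84% higher. The genes were proposed with this contrast in view, so nothing is read from that count.

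Aldoa encodes aldolase A, which cleaves fructose bisphosphate into a pair of triose phosphates. It was at 685 RPKM in WT against 429 in Tet2-/-, and the counting intervals of these levels, 672 to 697 and 420 to 439 RPKM, do not overlap. At this depth such separation is not particular to the 4 genes. The ratio intervals of all 5 listed reference genes also leave out 1, that of Actb being 1.07 to 1.09. The share of all models with separate intervals was not counted. The Tet2-/- level was 62.7% of WT with a 95% counting interval of 60.9% to 64.6%, a log2 fold of -0.67. The difference of 255 RPKM was the largest of the 4 genes, and Aldoa ranked 22 by level among listed protein-coding genes in WT and 38 in Tet2-/-. The gene lies on the minus strand of chromosome 7 at 126795234 to 126800751 (mm10), and GENCODE places 2 models under the symbol. Fam57b, which overlaps both models on the opposite strand, was not analysed here.

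Tpi1 encodes triosephosphate isomerase, which interconverts the products of aldolase so that both can continue down the pathway. It was at 268 RPKM in WT against 196 in Tet2-/-. The counting intervals of 261 to 276 and 190 to 203 RPKM do not overlap either, so the order of the libraries is the one seen for Aldoa. The Tet2-/- level was 73.2% of WT (70.2% to 76.3%), a log2 fold of -0.45. The gene lies on the minus strand of chromosome 6 at 124810586 to 124814296 and shares 34 bases at its end with Spsb2 on the opposite strand. Spsb2 was at 13.5 RPKM in WT against 13.4 in Tet2-/-, far below Tpi1 in both.

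Ldha encodes the A subunit of lactate dehydrogenase, which reduces pyruvate to lactate and regenerates the NAD needed upstream. It was at 688 RPKM in WT against 651 in Tet2-/-. The counting intervals were 676 to 701 and 639 to 664 RPKM, separate but close. The Tet2-/- level was 94.6% of WT (92.1% to 97.1%), a log2 fold of -0.08. By level, Ldha ranked 21 among listed protein-coding genes in WT against 23 in Tet2-/-. With no replicate cultures, a difference of this size cannot be set against the spread between cultures. The gene lies on the plus strand of chromosome 7 at 46841475 to 46855627.

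Vegfa encodes vascular endothelial growth factor A. It was at 48.7 RPKM in WT against 31.5 in Tet2-/-. The counting intervals were 44.6 to 53.1 and 28.2 to 35.0 RPKM and do not overlap. Relative to the level they are wider than those of the enzymes, because fewer fragments were estimated. By the shortest transcript these were 509 in WT against 333 in Tet2-/-, and by the longest 5004 against 3273. Both choices gave fewer fragments than for the enzymes, and the width depends on the transcript taken. The Tet2-/- level was 64.6% of WT (56.1% to 74.3%), a log2 fold of -0.61. By level, Vegfa ranked 329 among listed protein-coding genes in WT and 519 in Tet2-/-. It lies on the minus strand of chromosome 17 at 46016993 to 46032369.

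**Figure D1:**
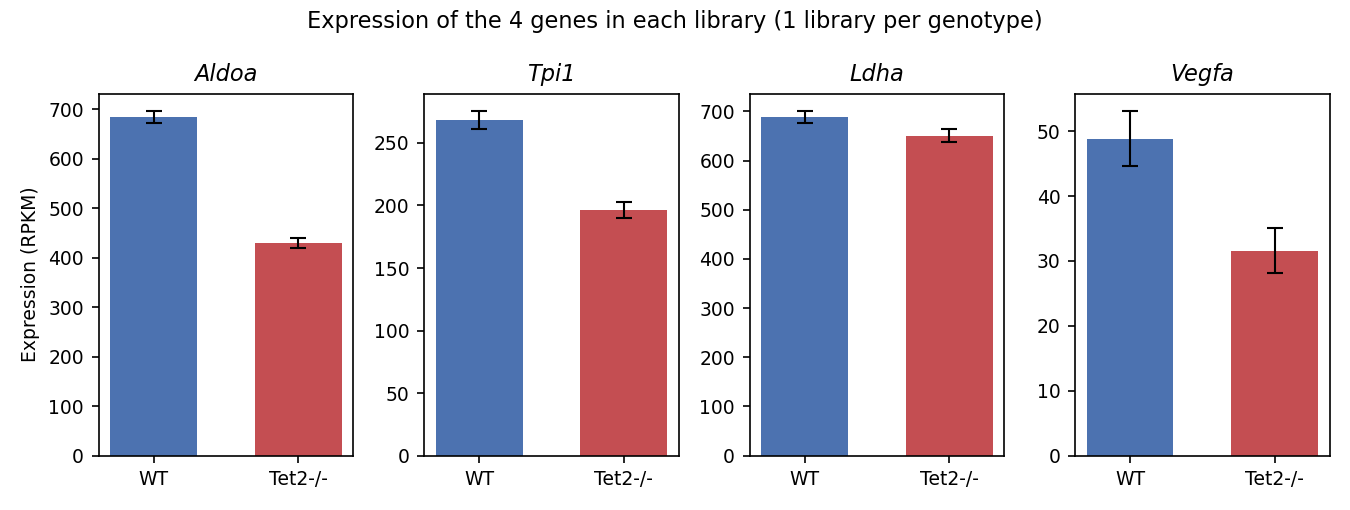
Expression in RPKM of Aldoa, Tpi1, Ldha and Vegfa in the WT library (blue) and the Tet2-/- library (red), each gene on its own axis from 0; error bars are exact 95% Poisson intervals of the estimated fragments and cover counting error only. The Tet2-/- bar is lower in each panel, from 94.6% of WT for Ldha to 62.7% for Aldoa.

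The 4 genes did not differ by a common factor. Aldoa and Ldha were nearly level in WT, with an Aldoa to Ldha ratio of RPKM values of 0.995, and stood apart in Tet2-/-, with a ratio of 0.660. The Tet2-/- to WT ratio of Aldoa was thus 0.663 times that of Ldha, with a counting interval of 0.638 to 0.690. Tpi1 lay between them. Its Tet2-/- to WT ratio was 0.774 times that of Ldha (0.737 to 0.813), and that of Aldoa was 0.857 times that of Tpi1 (0.815 to 0.901). The ratio of Aldoa was 0.971 times that of Vegfa (0.843 to 1.12), and that of Tpi1 was 1.13 times that of Vegfa (0.981 to 1.31). With fragments counted over the longest transcript, an alternative chosen after seeing the data, the Aldoa interval was 0.926 to 1.02 and still held 1, whereas the Tpi1 interval was 1.08 to 1.19 and did not. The ratio of Ldha was 1.46 times that of Vegfa (1.27 to 1.69). These 6 comparisons are of reads within the same 2 libraries and say nothing of the spread between cultures.

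The promoters of the 4 genes are shown because HIF is known to act through the core motif ACGTG or GCGTG, and the windows show how differently the genes carry it next to their starts. All 4 symbols matched, and the sequences are RefSeq's, on GRCm38.p6, the build of mm10. They read 5′ to 3′ on the strand of the gene up to the base before the annotated start, except for Tpi1. Capitals mark ACGTG or GCGTG on either strand, where CACGT and CACGC are the same motifs read on the opposite strand. For each gene the most upstream start was taken whose 250 preceding bases held no annotated exon. For Tpi1, which has 1 start, only the 112 bases before the annotated exon are given, and these stop short of its RefSeq start. The windows are chr7:126799255-126799504 for Aldoa, chr6:124814297-124814408 for Tpi1, chr7:46845554-46845803 for Ldha and chr17:46032378-46032627 for Vegfa.
Aldoa: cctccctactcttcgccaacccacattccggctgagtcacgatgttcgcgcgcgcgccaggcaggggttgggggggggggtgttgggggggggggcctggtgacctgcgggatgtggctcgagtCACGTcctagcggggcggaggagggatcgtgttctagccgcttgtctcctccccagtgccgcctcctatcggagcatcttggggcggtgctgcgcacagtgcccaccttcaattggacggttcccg
Tpi1: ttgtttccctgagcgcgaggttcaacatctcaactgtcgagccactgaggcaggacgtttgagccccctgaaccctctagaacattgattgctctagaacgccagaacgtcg
Ldha: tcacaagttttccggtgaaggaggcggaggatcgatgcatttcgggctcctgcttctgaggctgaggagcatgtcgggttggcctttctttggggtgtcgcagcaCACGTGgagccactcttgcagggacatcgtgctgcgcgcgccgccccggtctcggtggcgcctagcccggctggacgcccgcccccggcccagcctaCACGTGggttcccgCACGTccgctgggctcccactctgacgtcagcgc
Vegfa: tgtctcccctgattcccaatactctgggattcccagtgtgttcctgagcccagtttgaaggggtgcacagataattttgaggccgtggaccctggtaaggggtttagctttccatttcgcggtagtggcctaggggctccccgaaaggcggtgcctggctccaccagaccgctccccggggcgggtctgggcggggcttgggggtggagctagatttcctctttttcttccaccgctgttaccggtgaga

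The Ldha window held 5 matches on 3 sites, since 2 of its sites are the palindrome CACGTG and match on both strands. Counted on both strands in 250 bases before the start, ACGTG or GCGTG was found at least 5 times in 1.01% of 32851 RefSeq windows. It was found at least 3 times in 6.58% and at least once in 38.6%. Aldoa held 1 match, at positions -126 to -122 counted from the start. The Tpi1 and Vegfa windows held none, which says only that these letters are not in these windows. The start of Vegfa that lies within the gene held 2 and the second start of Ldha 1. Of the other Aldoa starts, the first held 0 and the third 1. The window of the third overlaps the printed one, and its match is the same site. A match is a string of letters and was not tested as a binding site. The GC box GGGCGG was in all 4 of the 250-base windows, with 2 copies in Aldoa, Ldha and Vegfa and 1 in Tpi1, and in 32.7% of all windows. That of Tpi1, at -67 to -62, lies outside its printed bases. CpG, the dinucleotide whose methylation Tet2 acts on, occurred 21 times in the 250 bases of Aldoa, 13 in those of Tpi1, 25 in Ldha and 11 in Vegfa. Over all windows the median was 6 and the upper quartile 16, so Tpi1 and Vegfa lay below that quartile. The other starts held 0 and 19 for Aldoa, 9 for Ldha and 7 for Vegfa, the 19 being counted in the overlapping Aldoa window. DNA methylation was not measured in these libraries.

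**Figure D2:**
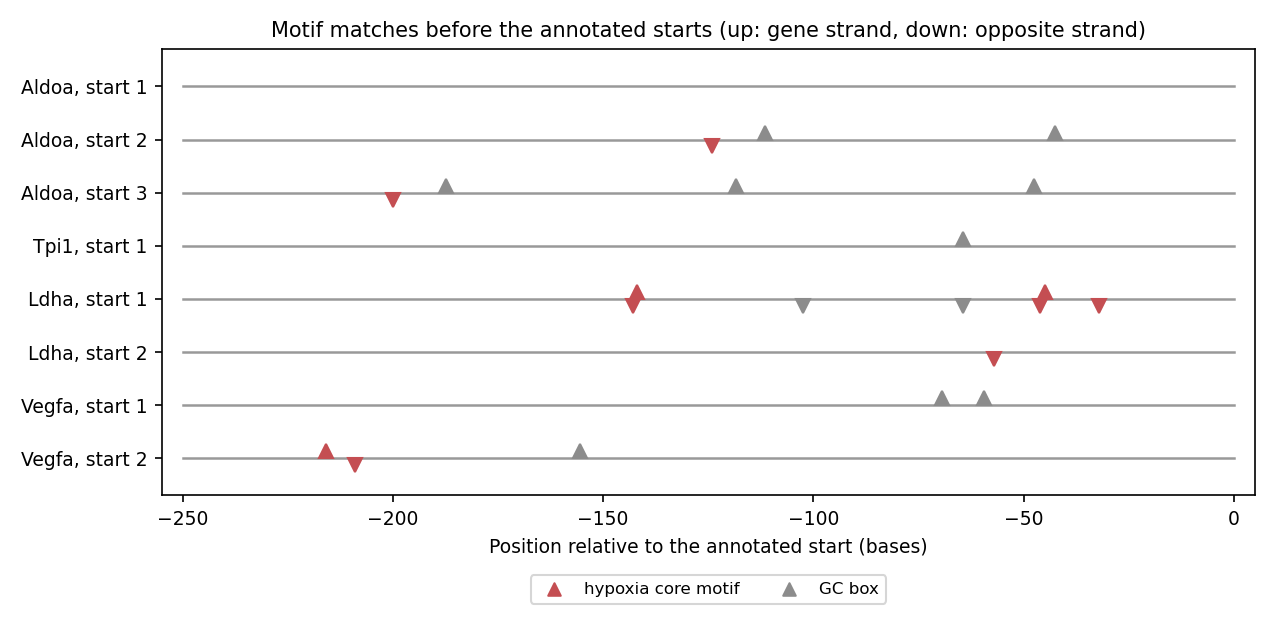
Matches of the hypoxia core motif (red) and the GC box (grey) in the 250 bases before each RefSeq start of the 4 genes, with distance from the start in bases on the horizontal axis; triangles pointing up are on the strand of the gene and triangles pointing down on the other. The first Ldha start holds 5 core matches on 3 sites, and the first Vegfa start and the Tpi1 start hold 0.

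Against genes of like expression, 3 of the 4 stood toward the low end of the ratios. Of annotated protein-coding genes 17.1% were listed, and the ranks here and above are within that part. Among 1176 listed protein-coding genes averaging at least 10 RPKM, 5% had a Tet2-/- to WT ratio below 0.796 and 5% a ratio above 1.35. Aldoa was the 13th lowest of them, Vegfa the 15th, Tpi1 the 27th and Ldha the 309th. Among the 64 protein-coding genes expressed at the mean level of Tpi1 or above, Aldoa had the lowest ratio, Tpi1 came next and Ldha was the 12th lowest. The median ratio of those 64 genes was 1.06, and 22 of them were lower in Tet2-/-. Among 591 protein-coding genes within 2-fold of the mean level of Vegfa, 10 had a lower ratio than Vegfa, led by Ncf1, which encodes a subunit of the phagocyte NADPH oxidase, at 54.2 against 10.8 RPKM. These ranks order genes within 1 pair of libraries and carry no error from replicates. The 4 genes were proposed with this contrast known, so their low ranks are a description and nothing is read from them.

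**Figure D3:**
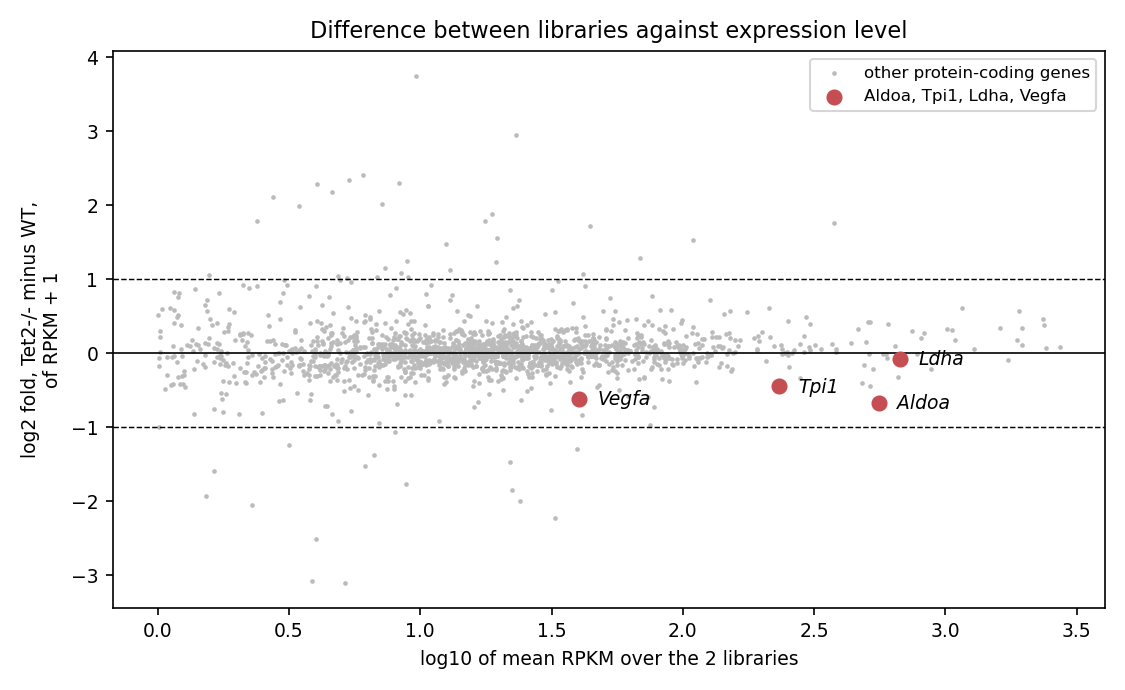
Log2 fold (Tet2-/- minus WT, of RPKM + 1) against the log10 of mean RPKM for 1774 protein-coding genes averaging at least 1 RPKM (grey), with the 4 genes in red and dashed lines at 2-fold. Aldoa, at -0.67, lies below the other genes of its expression level, while Ldha, at -0.08, lies near 0.

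The genes nearest to each of the 4 in the plane of log2(RPKM + 1) in WT and Tet2-/- were taken over protein-coding genes, a likeness that rests on 2 libraries. Nearest to Aldoa was Fcer1g, the gamma chain shared by Fc receptors, at 594 RPKM in WT against 438 in Tet2-/-. Its distance was 0.21 log2 units, and Ivns1abp (549 against 416 RPKM) and Slc18a2, a monoamine transporter of granules (572 against 491 RPKM) followed. Limd2, at 48.5 against 31.7 RPKM, lay 0.01 log2 units from Vegfa, the closest match of any of the 4. Tvp23b (53.3 against 29.4 RPKM) and the endocytic adaptor gene Epn1 (42.1 against 32.0 RPKM) came after it. Tpi1 had no such close neighbour, the nearest being the monoamine oxidase gene Maob at 270 against 238 RPKM, then Hnrnpl and Capns1, with distances of 0.27 to 0.32. Ldha lay nearest to the cytoplasmic actin gene Actg1, at 621 against 664 RPKM, then to Aldh2 (734 against 588 RPKM) and Ddx5 (610 against 584 RPKM).

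Of 29 glycolysis genes on the list, 5 were in the table, and the others were not analysed here. Past the filter were the 3 enzymes and Eno3, the muscle form of enolase, at 4.81 RPKM in WT against 4.30 in Tet2-/- with a ratio of 0.895 (0.725 to 1.10), an interval that includes 1. The liver and red cell pyruvate kinase gene Pklr was at 0.01 in both libraries. The 4 genes past the filter had a median log2 fold of -0.29, against 0.01 over all models, and -0.13 with Pklr included. None of them reached 2-fold, and 1, Aldoa, reached 1.5-fold. The choice of the 3 enzymes fixes most of this median. None of the 16 glucose and lactate transporter genes or of the 13 genes of kinases, phosphatases and other regulators of the pathway was in the table.

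Genes that take pyruvate and hexose phosphate elsewhere were mixed in direction, and none reached 1.5-fold on the log2(RPKM + 1) scale. Pcx, which encodes pyruvate carboxylase, the enzyme that turns pyruvate into oxaloacetate, was at 39.6 RPKM in WT against 59.4 in Tet2-/-, a ratio of 1.501 (1.45 to 1.56). Pdha1, a subunit of the pyruvate dehydrogenase complex that feeds acetyl-CoA to the citric acid cycle, was at 30.6 against 26.9 RPKM, a ratio of 0.881 (0.832 to 0.933). Its partner subunit gene Dlat (18.5 against 19.1 RPKM) and the mitochondrial pyruvate carrier gene Mpc1 (53.5 against 58.5 RPKM) had intervals that include 1. Pcx overlaps Lrfn4 on the opposite strand, so its value may hold reads of both. Beyond the 4 described genes, overlaps are given only for Pcx and Zfp36, both higher in Tet2-/-, and not for genes with lower values. The gluconeogenic gene Fbp1 was at 0.0737 in WT against 0.01 in Tet2-/-. The 4 genes past the filter had a median log2 fold of 0.08.

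Pgls, the only listed gene of the pentose phosphate pathway, was at 81.2 RPKM in WT against 102 in Tet2-/-, a ratio of 1.26 (1.18 to 1.34). It encodes the lactonase of the oxidative branch, which draws glucose phosphate away from glycolysis to make NADPH. The 3 listed citric acid cycle and related genes had a median log2 fold of 0.01. Aco1, cytosolic aconitase and an iron-regulated RNA-binding protein, was at 12.1 against 15.3 RPKM, a ratio of 1.26 (1.17 to 1.35). Dlst (47.1 against 47.5 RPKM), of the oxoglutarate dehydrogenase complex, and the cytosolic isocitrate dehydrogenase gene Idh1 (17.9 against 16.8 RPKM) had intervals that include 1. Of the glycogen and glycerol genes, Pgm2, a phosphoglucomutase gene, was at 23.7 against 20.7 RPKM. Gpd1l, a glycerol phosphate dehydrogenase gene, was at 16.1 against 14.3 RPKM, and both intervals lay below 1. Gys2, the liver glycogen synthase gene, was at 0.01 in both.

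Among other hypoxia-induced genes most values were lower in Tet2-/-, but by less than for Aldoa and Vegfa. Selenbp1, with a ratio of 0.731, was level with Tpi1, at 0.732. Bnip3l, Trf, Narf and Higd1a also had lower ratios than Ldha. The list holds 70 genes, of which 17 were in the table and 13 passed the filter, the 4 described genes among them. Of the remaining 9, 6 had a ratio below 1 and 3 above, with a median log2 fold of -0.12, and none reached 1.5-fold on the log2(RPKM + 1) scale. Of all models past the filter, 48.0% had a ratio below 1.

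Bnip3l, which encodes a mitophagy receptor, was at 79.2 RPKM in WT against 62.7 in Tet2-/-, a ratio of 0.791 (0.765 to 0.819). Trf, the transferrin gene, was at 22.5 against 17.1 RPKM, a ratio of 0.762 (0.706 to 0.823), and Selenbp1 at 14.2 against 10.4 RPKM, a ratio of 0.731 (0.651 to 0.822). Those 3 have intervals wholly below 1. Plod1, a collagen lysyl hydroxylase gene, went the other way, at 24.2 against 28.6 RPKM, a ratio of 1.18 (1.06 to 1.31). P4ha2, which encodes a subunit of collagen prolyl hydroxylase, was also higher, at 4.90 against 7.46 RPKM, a ratio of 1.52 (1.31 to 1.77). Higd1a, a mitochondrial hypoxia-induced gene, was at 18.1 against 16.6 RPKM, Kdm4c, a histone demethylase gene, at 13.6 against 13.2 RPKM, and the lipid droplet gene Hilpda at 9.65 against 9.90 RPKM. Those 3 intervals include 1. Narf was at 11.4 against 10.2 RPKM with an interval below 1, and Epo, Lox and Loxl2 were among those that did not pass the filter.

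Of 25 genes of the HIF machinery, 3 were in the table and lay close to equal. Hif1an, an asparagine hydroxylase that limits HIF activity, was at 10.1 RPKM in WT against 10.3 in Tet2-/-, a ratio of 1.02 (0.955 to 1.08). The coactivator gene Ep300 was at 23.0 against 22.1 RPKM, a ratio of 0.962 (0.930 to 0.996), and Tceb1, elongin C of the ubiquitin ligase that marks HIF for degradation, at 90.2 against 93.4 RPKM. Hif1a, Epas1, Arnt, Vhl and the Egln genes were not analysed here. Of the broader list of transcription and growth signalling genes, Sp1, whose product binds GC boxes, was at 28.6 against 25.4 RPKM, and the growth inhibitor genes Tsc1 and Tsc2 were at 9.58 against 9.38 RPKM and at 15.8 against 12.9 RPKM.

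**Figure D4:**
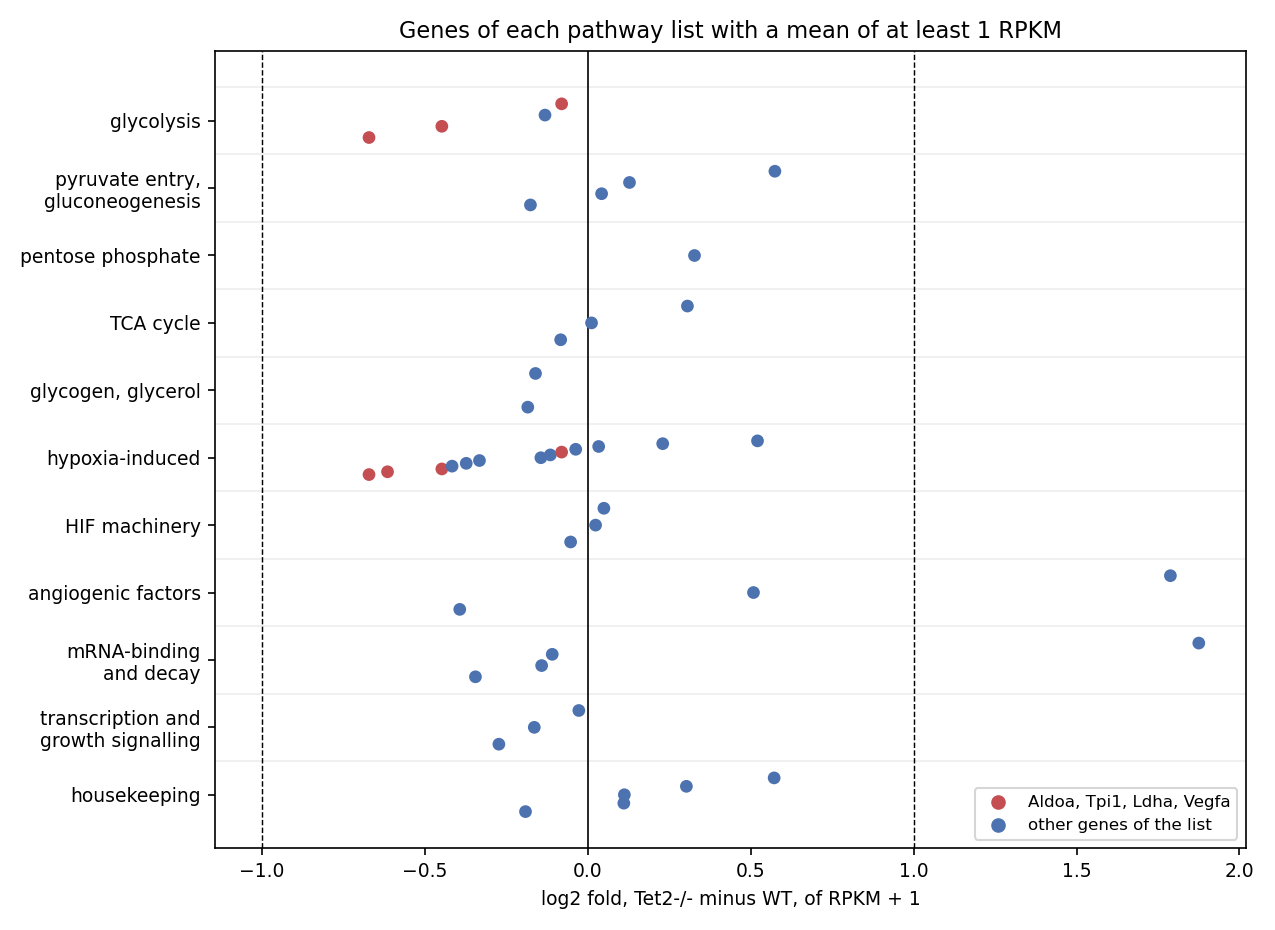
Log2 fold (Tet2-/- minus WT, of RPKM + 1) of each listed gene averaging at least 1 RPKM, by pathway list, with Aldoa, Tpi1, Ldha and Vegfa in red and dashed lines at 2-fold. The 3 glycolytic enzymes and Vegfa are at or left of -0.08, and the points beyond 2-fold are Spp1 among angiogenic factors, at 1.79, and Zfp36 among RNA-binding genes, at 1.88.

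Vegfa was the only listed gene of its family with a mean above 1 RPKM. Of 11 ligand and receptor genes 4 were in the table, and the others were at most 0.276 RPKM. The coreceptor gene Nrp2 was at 0.114 RPKM in WT against 0.276 in Tet2-/-, the ligand gene Figf at 0.0425 and 0.01, and the receptor gene Flt4 at 0.00940 and 0.0103. Other angiogenic factors were mixed in direction, and 3 of the 8 listed passed the filter. Spp1, the osteopontin gene, was at 7.35 against 27.8 RPKM, a ratio of 3.79 (3.32 to 4.33), and was the 1 gene of those 3 that was higher by 2-fold. Tek, the angiopoietin receptor gene and the 1 listed gene of 5 endothelial markers, was at 12.7 against 18.4 RPKM, a ratio of 1.46 (1.37 to 1.55). Pdgfa, a platelet-derived growth factor gene, was at 2.57 against 1.72 RPKM, a ratio of 0.669 (0.480 to 0.948), close to that of Vegfa but on few fragments. Tgfa, below the filter, was at 0.168 against 0.811 RPKM.

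The Vegfa mRNA is known to carry AU-rich elements, which decay factors and stabilisers bind, and 4 of 15 genes of such RNA-binding proteins were in the table. Zfp36, which encodes tristetraprolin, a decay factor of AU-rich mRNAs, was at 7.47 RPKM in WT against 30.1 in Tet2-/-, a ratio of 4.03 (3.66 to 4.43), and was the 1 gene of the 4 beyond 2-fold. Zfp36 overlaps an annotated antisense RNA, and whether the libraries kept strand is not stated. Hnrnpl was at 216 against 200.2 RPKM, Khsrp at 34.6 against 31.3 RPKM and Tial1 at 76.2 against 59.7 RPKM, ratios of 0.927, 0.904 and 0.784. The relation of these genes to the level of Vegfa was not tested.

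Genes often used as references were not lower as a group. Of 14, 5 were in the table, 4 of them with higher values in Tet2-/-, and their median log2 fold was 0.11. Actb was at 1879 RPKM in WT against 2029 in Tet2-/-, B2m at 665 against 821 RPKM, Ppia at 1528 against 2272 RPKM and Polr2a at 43.2 against 46.8 RPKM. Tbp was lower, at 23.6 against 20.5 RPKM. Its ratio of 0.870 has a counting interval of 0.797 to 0.950, which holds the Ldha ratio of 0.946. Relative to each of the 5 in turn, the ratio of Aldoa ran from 0.422 (Ppia) to 0.721 (Tbp), that of Vegfa from 0.434 to 0.742 and that of Tpi1 from 0.492 to 0.841. The ratio of Ldha ran from 0.636 relative to Ppia to 1.09 relative to Tbp. Relative to B2m it was 0.767, to Polr2a 0.873 and to Actb 0.876, so that its direction turned with Tbp alone. This scaling was chosen after seeing the data.

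The values of the 3 enzymes carry a doubt that Vegfa does not. Each resembles other annotated genes, many of them processed pseudogenes, and how the authors assigned reads that match several places is not given in the sources used here. In a search of annotated transcripts, the longest Ldha transcript matched 40 other genes over at least 200 bases, 10 of them at 90% identity or more. Aldoa matched 18 with 3 at that identity, and Tpi1 matched 10 with 2, the closest at 97.7%. Vegfa matched 0. The copies in the table, Gm13549 for Ldha and Gm15172 for Aldoa, were at 0.01 in both libraries, and Gm29050, an antisense RNA model with 72.1% identity to Ldha, was at 0.381 RPKM in WT against 1.27 in Tet2-/-. The listed copies were thus far below the levels of Ldha and Aldoa, but they are few of the similar genes. At 90% identity or more, 1 was listed for Ldha and 0 for Aldoa. For Tpi1, 0 similar genes were listed at any identity, so the doubt stays for all 3 enzymes.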

How the data were processed

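The authors deposited 1 table with an RPKM column for each genotype, per the file headers. Per the submitters' processing notes, mm10 was the build. The aligner, the counter and the annotation were not given in the sources used here. The value 0.01 filled 58.1% of the WT column and 57.4% of the Tet2-/- column and was taken to mean no reads, although a few values lie below it. Of 8139 symbols, 7861 matched GENCODE mouse release 21, and 17.1% of its protein-coding genes were listed.

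The genes, lists, naming rule and thresholds were chosen with earlier results of these data known. Folds are on the log2(RPKM + 1) scale, over models averaging 1 RPKM or more, and a size of 2-fold stood in place of a test. Medians of lists are over genes past that filter. Named were the 4 genes, listed genes of the pathway lists (with more than 5 listed, the 5 most expressed and any beyond 1.5-fold; other listed members were added), listed copies, and the 3 nearest genes. The antisense overlap and the 10 genes lower than Vegfa were looked at after their values were seen.

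Depth was inferred from genes with a single transcript. With 180 bases taken off the length, 96.3% of 347 genes in WT and 96.0% of 379 in Tet2-/- fell within 0.1 of a whole fragment, where chance gives 20%. Intervals of ratios are exact Clopper-Pearson intervals at 95%, from fragments of the shortest basic transcript, which makes them wide; intervals of ratios between genes use a normal approximation on the log scale. All cover counting error only. The calling rule and the depth estimate were tested on simulated data. Copies were searched with BLAST 2.17.0. The scripts ran under Python 3.11.15 with scipy 1.17.1, numpy 2.4.6, matplotlib 3.10.9 and pandas 2.3.3. The alternatives were other pseudocounts, filters, fold thresholds, transcripts and a median-ratio scaling; scaling to reference genes was added after seeing the data.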

Additional observations from a re-analysis of the deposited data

How the results depend on the processing

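The log2 folds of Aldoa, Tpi1, Ldha and Vegfa stayed within their counting intervals with a pseudocount of 0.1 or 5 RPKM and under median-ratio scaling, which shifted each fold by about -0.01. For Vegfa they ran from -0.56 to -0.63. The sign of a fold is fixed whatever the pseudocount. Scaled to Tbp, a choice made after seeing the data, the log2 folds were -0.47 for Aldoa, -0.25 for Tpi1, 0.12 for Ldha, which reversed, and -0.42 for Vegfa. Scaled to the median ratio of the 5 reference genes, likewise added, they were -0.79 for Aldoa, -0.56 for Tpi1, -0.19 for Ldha and -0.73 for Vegfa. With the longest transcript in place of the shortest, the interval of the Vegfa ratio narrowed to 0.618 to 0.675. Over the filters, pseudocounts and median-ratio scaling tried, the median of the glycolysis list ran from -0.13 to -0.45. That of the hypoxia-induced list ran from -0.08 to -0.16. Their constant sign is no check, since both lists include chosen genes and a pseudocount cannot turn it. Of the listed glycolysis genes, 0 had a ratio above 1. The counts of 61 models higher and 34 lower became 33 and 14 with a pseudocount of 5 RPKM, 40 and 16 for models averaging 5 RPKM or more, 123 and 76 at 1.5-fold, and 30 and 16 among protein-coding genes. No filter, a pseudocount of 0.1 RPKM, median-ratio scaling and leaving out models at 0.01 in either library kept both counts within 1.5 times. No paired analysis was possible because there is a single library of each genotype. That also left no library to drop.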

Other observations

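Pgk1-rs7, a related sequence of the phosphoglycerate kinase gene Pgk1 that was on no list and was chosen after its values were seen, was at 16.03 RPKM in WT against 13.2 in Tet2-/-, a ratio of 0.825. Pgk1 itself was not analysed here, and how reads shared by the gene and this copy were assigned is not stated.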
